A study of Mus musculus with 8 samples.

Results

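Of the 5671 DSB peaks called in Chd1 KO mouse ES cells, 764 (13.5%, interval 12.6% to 14.4%) had their summit in an intron shortly after a transcription start site (TSS). A peak was placed here when its summit lay more than 100 and at most 1000 bp downstream of the nearest annotated TSS, inside a transcript but in no exon of any annotated transcript. These intronic peaks lay at 757 TSSs and named 751 genes, of which 13 had 2 such peaks and none had more. DSB-seq labels the ends of broken DNA with biotin so that the fragments that carry them can be pulled down and sequenced, and it was done in ES cells with both Chd1 alleles deleted (Chd1 KO, genotype Chd1delta/delta) and in control cells with 1 floxed and 1 already deleted allele (labeled WT, genotype Chd1fl/delta). Both genotypes were grown under the same conditions in serum with LIF, and each had 2 replicates. The authors combined the replicates before they called peaks, so that 1 list of 5671 Chd1 KO peaks and 1 list of 54 control peaks were compared, and no value below has a replicate error or a test. Intervals are 95% intervals for counting error, and a count of 0 is given with the share that 3 counts would have.

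The first intron of a mammalian gene is often long, and where the promoter lies in a CpG island the island usually runs past the TSS, through the first exon and into the start of that intron. RNA polymerase II pauses and then passes into elongation over this stretch, and Chd1, a remodeler that uses ATP to move nucleosomes, helps it across those near the promoter. The strand with the sequence of the transcript is called the coding strand here and the strand that is read by the polymerase the template strand. An excess of guanine over cytosine on the coding strand (GC skew) is a known property of many CpG-island promoters, and guanine runs on a strand can fold into G-quadruplexes.

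The sequence at the strongest intronic peaks is shown because base composition set these places apart from the intronic sequence of the same distance window as a whole. The peaks were ordered by fold enrichment, as the authors computed it from the read pileup at the summit and the background around it in the same combined library. Printed are 120 bp centered on the summit, 5′ to 3′ on the coding strand of the gene with the nearest TSS, from the mm9 genome, for the 8 leading peaks whose 120 bp lay outside every exon. Capitals mark runs of at least 8 bases of G and C only.
SNORA17: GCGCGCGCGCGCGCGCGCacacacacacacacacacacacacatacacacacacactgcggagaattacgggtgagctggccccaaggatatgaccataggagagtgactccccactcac
Kmo: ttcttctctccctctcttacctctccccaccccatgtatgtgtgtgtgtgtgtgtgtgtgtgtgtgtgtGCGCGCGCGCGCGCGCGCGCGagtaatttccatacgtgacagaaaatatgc
Scaf8: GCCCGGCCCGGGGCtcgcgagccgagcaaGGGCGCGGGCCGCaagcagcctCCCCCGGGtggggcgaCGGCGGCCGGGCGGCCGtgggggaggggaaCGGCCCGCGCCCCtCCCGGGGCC
Zbtb17: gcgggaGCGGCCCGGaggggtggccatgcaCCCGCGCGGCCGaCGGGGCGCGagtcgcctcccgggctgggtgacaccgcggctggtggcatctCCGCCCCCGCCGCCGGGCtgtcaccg
Nfkbia: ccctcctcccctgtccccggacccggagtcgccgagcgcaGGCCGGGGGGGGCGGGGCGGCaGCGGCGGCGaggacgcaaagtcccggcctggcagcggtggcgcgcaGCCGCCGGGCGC
Nemf: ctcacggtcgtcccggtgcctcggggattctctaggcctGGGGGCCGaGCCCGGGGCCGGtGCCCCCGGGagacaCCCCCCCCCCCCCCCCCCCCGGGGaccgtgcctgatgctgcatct
Lass5: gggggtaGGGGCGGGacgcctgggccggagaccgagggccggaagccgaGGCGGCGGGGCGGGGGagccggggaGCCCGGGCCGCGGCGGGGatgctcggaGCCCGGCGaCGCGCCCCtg
Thap1: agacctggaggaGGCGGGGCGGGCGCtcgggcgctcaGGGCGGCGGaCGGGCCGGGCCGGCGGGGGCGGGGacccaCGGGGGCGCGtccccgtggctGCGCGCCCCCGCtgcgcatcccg

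The windows of SNORA17 (chr9:99650124-99650243, minus strand) and Kmo (chr1:177562699-177562818, plus strand) hold an alternating tract of G and C that borders a CA or TG repeat, within sequence of 60% and 55% GC. The other 6 windows hold several tracts of G and C in sequence of 77.5% to 86.7% GC, and lie at Scaf8 (chr17:3115459-3115578, plus strand), Zbtb17 (chr4:141000859-141000978, plus strand), Nfkbia (chr12:56593042-56593161, minus strand), Nemf (chr12:70457838-70457957, minus strand), Lass5 (chr15:99602462-99602581, minus strand) and Thap1 (chr8:27269075-27269194, plus strand). The Nemf window was the one with more C than G, 54 against 39, among these 6, while that of Lass5 had 66 G and 36 C.

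By annotation, 742 of the 764 peaks (97.1%) named protein-coding genes, 11 lincRNA genes and 3 snoRNA genes. The summit was in the first intron of a transcript that started at the nearest TSS for 742 peaks (97.1%, interval 95.7% to 98.1%), in the second intron for 14 and in a later one for 2. The remaining 6 summits lay in an intron of another transcript or gene. The intron that held the summit had a median length of 10.6 kb (interval 9.12 to 12.6), and 394 (51.6%) were at least 10 kb long while 77 (10.1%) were under 1 kb. Within these introns the summits lay close to the start, at a median of 138 bp (interval 129 to 148) after the splice donor that ends the preceding exon, and 544 (71.2%) were within 200 bp of it. The peaks were wider than that distance in many cases, with a median width of 308 bp, and 468 (61.3%) also touched an exon while 296 (38.7%) lay wholly outside exons. The TSS itself was inside the peak for 159 (20.8%). The limit of 1000 bp after the nearest TSS bounds the distance from the donor and favors the first intron. Neither value is given here for intronic sequence regardless of peaks.

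The summits were most frequent near the TSS, with a median distance of 315 bp (interval 302 to 335) and quartiles of 216.8 and 445.5 bp. Within 500 bp lay 622 of the 764 (81.4%). Per Mb of intronic sequence, the density was 72.1 summits (interval 61.2 to 84.4) in the bin of 100 to 200 bp and 66.8 (57.7 to 76.9) in that of 200 to 300 bp, with intervals that overlap (each bin excludes its lower limit). It then fell with each further 100 bp, to 15.1 (11.3 to 19.9) between 500 and 600 bp and 3.28 (1.64 to 5.86) at 900 to 1000 bp. Exons in the same window held 774 summits. Over the whole window the density was 26.6 per Mb (24.8 to 28.6) in 28.7 Mb of intronic sequence and 53.6 per Mb (49.9 to 57.5) in 14.4 Mb of exonic sequence, but by distance the intervals were apart only at 100 to 200 bp, where the exonic density was 102 per Mb (91.4 to 113). Just inside the near limit was the summit at Rufy2, 1 bp past it with a fold enrichment of 3.83, and just outside it that at Api5, 100 bp from the TSS with 4.30. Just inside the far limit was the summit at Emid2, 992 bp from the TSS with 4.08, and just outside it that at Ctdsp2, 1013 bp from the TSS with 4.44.

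**Figure D1:**
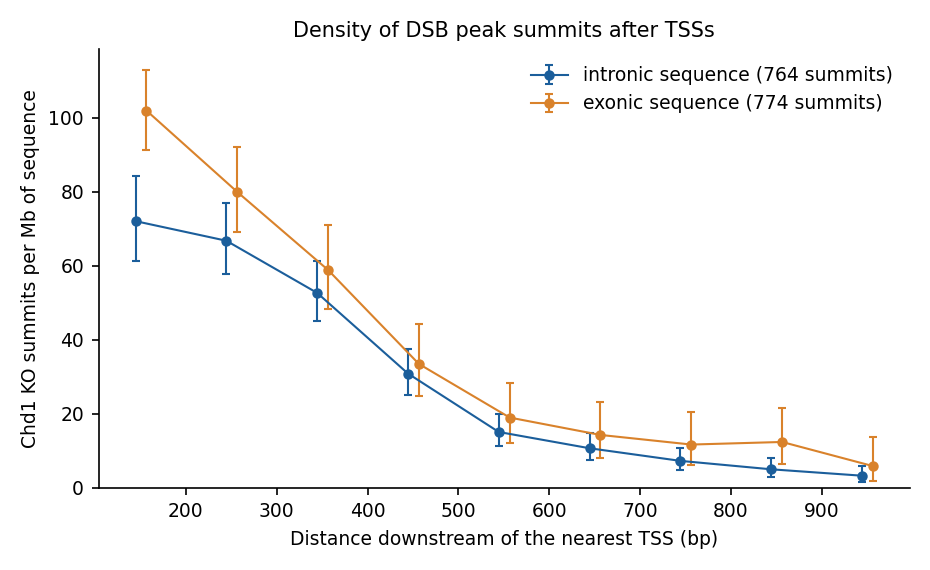
Number of Chd1 KO DSB peak summits per Mb of intronic (blue) and exonic (orange) sequence in 100-bp bins of distance from the nearest TSS, with exact Poisson 95% intervals as bars. Intronic density falls from 72.1 to 3.28 per Mb across the window, and the intronic and exonic intervals are apart only in the bin nearest the TSS.

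The height of the intronic peaks was close to that of the other peaks near TSSs. Their fold enrichment had a median of 4.53 (interval 4.46 to 4.56), with quartiles of 4.04 and 5.04, against 4.47 (4.40 to 4.53) for the 774 exonic peaks in the same window and 4.54 (4.48 to 4.55) for the 1560 peaks within 100 bp of a TSS. The 832 intronic peaks more than 1 kb from any TSS had a higher ratio, with a median of 4.78 (4.69 to 4.89). Their median was 22 reads (21 to 22) over a local background of 3.64 (3.58 to 3.72). The intronic peaks just after TSSs had as many reads, over a higher background of 3.96 (3.88 to 4.02). Behind each intronic summit stood 14 to 41 extended reads, with a median of 22, over a median local background of 3.96 reads. The lowest −log10 q-value among the intronic peaks was 2.14. Fold enrichment varied little with position, with a Spearman correlation with distance of -0.05 (Pearson -0.05) over the 764 peaks of the combined library. The correlation with GC content was 0.26 (Pearson 0.16) and that with the length of the longest run of G and C under the peak 0.24 (Pearson 0.23), values that describe peaks that had all passed the same cutoff.

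The highest fold enrichment was 8.27, from 41 reads over a background of 4.08, at the copy of SNORA17, a small nucleolar RNA gene, on chromosome 9. This summit was 752 bp downstream of the SNORA17 start and in the second intron of Gm16004, on the opposite strand, so its coding strand is that of the small RNA. Kmo, which encodes an enzyme of tryptophan breakdown, had 7.89, from 32 reads over 3.18, at 389 bp. Scaf8, which encodes a protein that binds the C-terminal domain of RNA polymerase II, had 7.58 from 36 reads over 3.88. After these came the inositol phosphatase gene Inpp5f with 7.41, Zbtb17 (Miz-1, a transcription factor that partners Myc) with 7.09, and Nfkbia (the inhibitor that holds NF-κB in the cytoplasm) with 7.05. The 10 highest were completed by 2410042D21Rik with 7.01, the cell-junction scaffold gene Dlg1 with 6.99, Nemf (a factor of ribosome-associated quality control) with 6.93 and the zinc finger gene Zfp148 with 6.70. The lowest of all 764 was 2.94, at Nfic. None of these 10 genes had another peak at the same promoter, and 9 of the 10 summits lay in the first intron of the gene itself.

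No control peak overlapped any of the 764 intronic peaks, which allows a share of up to 0.393%. The background is low, since of all 5671 Chd1 KO peaks 49 (0.864%) overlapped a control peak, and the exonic peaks in the same window also gave 0 of 774. The nearest control summit was 5.78 kb away. The control list came from a combined library of like depth, since the lowest local background implies 27592584 reads in control and 29762720 in Chd1 KO. The q-value cutoff did not act alike, and the lowest listed summit had 17 reads in control and 13 in Chd1 KO. Of the 764 intronic peaks, 673 had at least the −log10 p-value of the weakest control peak, and none of these was overlapped. The control list holds only places past the cutoff, and control reads below the cutoff at these introns were not analyzed here.

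The intronic summits lay in sequence of very high GC content. In the 200 bp centered on the summit the median was 77.5% GC (interval 77 to 78), with quartiles of 74 and 80.5, and 746 of the 764 (97.6%) had at least 60%. For comparison, the same measure was taken at a place every 100 bp through all intronic sequence 100 to 1000 bp after TSSs, whether or not it had a peak. Over these 294660 places, which were not matched to the summits by distance, the median was 46.5%, and 8.77% had at least 60%. The exonic peaks had the same median of 77.5%, and the intronic peaks more than 1 kb from TSSs one of 55.5% (55 to 56). Only 18 of the 764 fell below 60% GC. Their median fold enrichment was 4.53, equal to that of the rest, and 12 of them (66.7%, interval 43.7% to 83.7%) had a run of at least 20 bases of G and C under the peak, against 48.0% (44.4% to 51.6%) of the rest.

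Summit density rose steeply with GC content. No summit had under 40% GC, in 6.77 Mb of intronic sequence, which allows up to 0.443 per Mb, and the density was 0.253 per Mb (interval 0.0521 to 0.738) at 40% to 50%, 8.08 (3.87 to 14.9) at 60% to 65%, 71.0 (52.2 to 94.5) at 65% to 70% and 367 (309 to 434) at 70% to 75%. It reached 1359 per Mb (1210 to 1521) at 75% to 80% and 3058 (2689 to 3463) at 80% or more. At a given GC content intron and exon differed by less than their intervals. The exonic densities were 76.5 per Mb (55.4 to 103) at 65% to 70%, 378 (320 to 443) at 70% to 75%, 1524 (1365 to 1696) at 75% to 80% and 3128 (2739 to 3556) at 80% or more, and the intervals of intron and exon overlapped in every bin. The lower density of intronic sequence as a whole went with its lower GC content, since places with 75% GC or more made up 0.303 Mb of the intronic and 0.294 Mb of the exonic sequence.

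**Figure D2:**
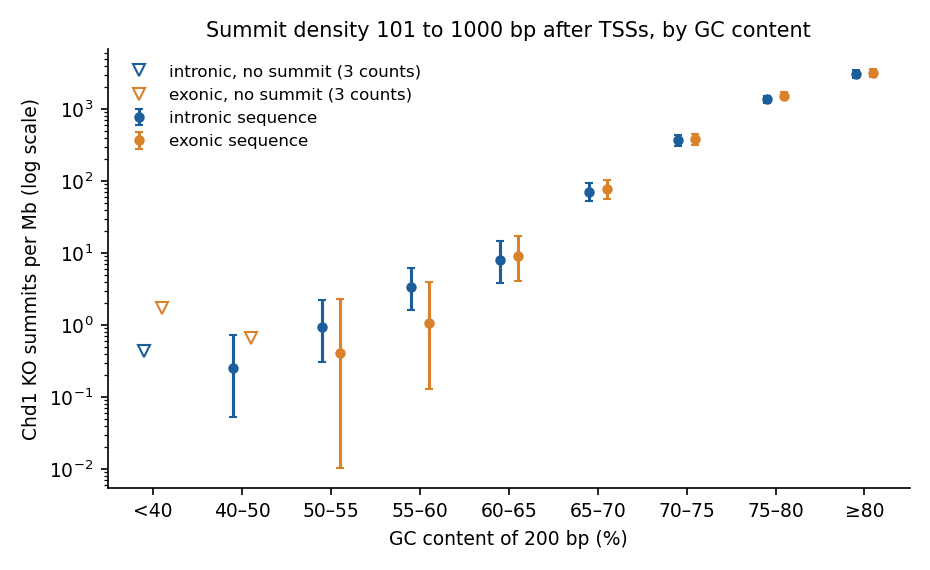
Chd1 KO summits per Mb (log axis) of intronic (blue) and exonic (orange) sequence 100 to 1000 bp after TSSs, by the GC content of the surrounding 200 bp, with exact Poisson 95% intervals; open triangles give the density that 3 counts would have in bins with no summit. Intronic density runs from 0.253 per Mb at 40% to 50% GC to 3058 at 80% or more, and the intervals of intron and exon overlap in each bin.

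At high GC content the density did not fall steadily with distance. Over intronic places with at least 75% GC, a limit chosen after the densities had been seen, there were 1328 summits per Mb (interval 1100 to 1589) between 100 and 200 bp, 2318 (1928 to 2763) between 300 and 400 bp, and 1543 (1033 to 2215) at 700 to 1000 bp. The value nearest the TSS was the lowest of the 6 distance bins, and its interval was apart from that at 300 to 400 bp but not from that at 700 to 1000 bp. In exons of the same GC content the bin at 100 to 200 bp had 2051 per Mb (1808 to 2317), above the intronic value, and it was the bin in which the 2 differed beyond their intervals. Over all distances such places had 1814 per Mb (1666 to 1973) in introns and 1931 (1775 to 2096) in exons.

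Around the summit, G rose to 43.2% of bases on the coding strand and C to 36.2%, within 40 bp of the summit. The rise was asymmetric in space. GC content was 61.1% at 580 bp upstream of the summit, toward the TSS, and 48.7% at 580 bp downstream. Thymine increased faster than adenine on the downstream side, to 27.4% and 23.9%. Intronic places regardless of peaks had the same order with a smaller fall, from 51.2% GC at 580 bp upstream to 45.1% at 580 bp downstream. There, thymine was 28.7% and adenine 26.2% at 580 bp downstream. At exonic summits G and C were nearly level, at 39.3% and 39.0% just upstream.

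**Figure D3:**
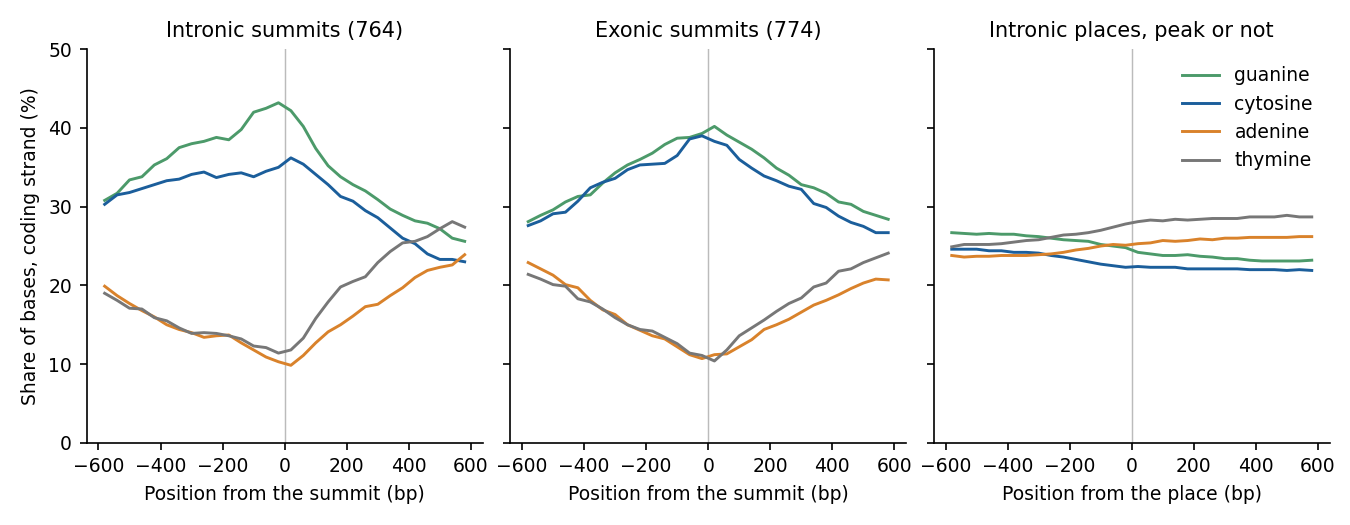
Share of each base on the coding strand, in 40-bp bins within 600 bp of the 764 intronic summits (left), the 774 exonic summits (middle) and every 20th intronic place regardless of peaks (right). Guanine exceeds cytosine at intronic summits, 43.2% against 35% in the bin just upstream, and both are nearly level at exonic summits.

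GC skew, the difference of G and C over their sum in the 200 bp, had a median of 0.102 (interval 0.0877 to 0.113) on the coding strand of the intronic peaks, and 558 (73.0%, interval 69.8% to 76.1%) were above 0. The median was 0.0185 (0.00629 to 0.0314) for exonic peaks, of which 54.4% (50.9% to 57.9%) were above 0, and 0.0621 (0.0513 to 0.075) for peaks within 100 bp of a TSS. Upstream of TSSs it was 0.0183 (-0.00599 to 0.0385), and at intronic peaks more than 1 kb from TSSs it was 0 (-0.0308 to 0.0303). Intronic peaks at 100 to 200 bp had the highest values, with a median of 0.144 (0.119 to 0.172) and 85.9% above 0, against 0.0731 (0.037 to 0.0976) and 64.1% at 400 to 600 bp. The 90 peaks past 600 bp had 0.105 (0.0621 to 0.13), so the skew did not fall throughout.

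The motif of 4 runs of at least 3 G, separated by 1 to 7 bases, followed the same asymmetry. It was found within the 200 bp on the coding strand of 305 intronic peaks (39.9%, interval 36.5% to 43.4%) and on the template strand of 143 (18.7%, 16.1% to 21.6%). Both strands had it in 37 peaks and neither in 353. Exonic peaks had it on the coding strand in 19.3% (16.6% to 22.2%) and on the template strand in 18.1% (15.5% to 21.0%), so the coding strand alone set the intronic peaks apart from exonic ones. Peaks within 100 bp of a TSS had it in 31.3% (29% to 33.6%) on the coding and 23.3% (21.3% to 25.5%) on the template strand. Upstream of TSSs these shares were 30.2% (26.6% to 34.1%) and 28.7% (25.1% to 32.5%). At intronic peaks more than 1 kb from TSSs the order was the other way, 25.7% (22.9% to 28.8%) on the coding and 30.3% (27.3% to 33.5%) on the template strand, with intervals that overlap. With either strand counted, 53.8% of the 764 intronic peaks had the motif. This share was 35% for exonic peaks, 50.1% within 100 bp of a TSS, 55.2% upstream of TSSs and 55.2% at intronic peaks more than 1 kb away.

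Intronic sequence of like GC content had a like asymmetry whether or not it had a peak. Among intronic places with at least 75% GC, 38.5% (36.8% to 40.2%) had the motif on the coding and 17.2% (15.9% to 18.6%) on the template strand, close to the 42.6% (38.6% to 46.8%) and 20.6% (17.4% to 24.2%) of the intronic peaks with such a GC content. Exonic places of at least 75% GC had 16.2% (14.9% to 17.5%) and 17.3% (15.9% to 18.7%). The median skew of these intronic places was 0.0932 and that of the peaks 0.107. At 55% to 60% GC the density of intronic summits was 20 per Mb (interval 6.5 to 46.7) at places with the motif on the coding strand and 0.783 (0.0949 to 2.83) at those with none, and these intervals, which rest on 5 and 2 summits, lie apart. It was 121 (67.6 to 199) against 60.4 (40.1 to 87.3) at 65% to 70% and 474 (351 to 627) against 321 (253 to 402) at 70% to 75%, higher with the motif but with intervals that overlap. At 80% GC or more the densities were level, at 3136 per Mb (interval 2614 to 3731) at places with the motif on the coding strand and 3143 (2521 to 3872) at those with none. Places with the motif on the template strand only had 17.1 per Mb (3.53 to 50) at 55% to 60%. They had 54.3 (14.8 to 139) at 65% to 70%. At 75% to 80% they had 1801 (1323 to 2395), against 1408 (1154 to 1701) with the motif on the coding strand. In every GC bin the intervals of both strands overlapped, so density did not set the coding strand apart. The median fold enrichment was 4.55 (4.46 to 4.67) for peaks with the motif on the coding strand and 4.50 (4.39 to 4.56) for those without it, with intervals that overlap.

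**Figure D4:**
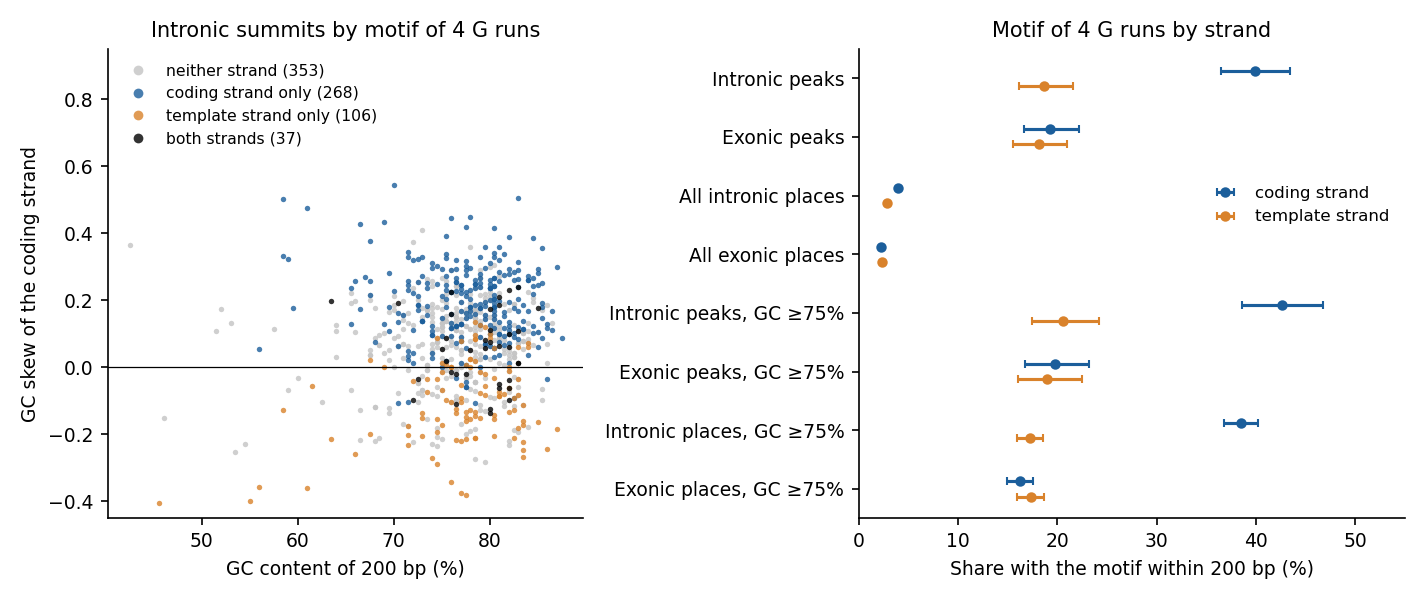
Left, GC content and coding-strand GC skew of each of the 764 intronic summits, colored by which strand holds the motif of 4 G runs; right, share of peaks and of places regardless of peaks with the motif on the coding (blue) and template (orange) strand, with Wilson 95% intervals. Intronic peaks have it on the coding strand in 39.9% and on the template strand in 18.7%, and intronic places of at least 75% GC show the same order.

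Single peaks lay far to either side of the median. The highest skew was 0.54, at the second intron of the cytokine gene Il17d, followed by 0.51 at Rnf214, 0.50 at the receptor tyrosine kinase gene Axl, 0.48 at 5830418P13Rik and 0.45 at Nfrkb, which encodes a protein of the INO80 remodeling complex. All 5 had the motif on the coding strand only. The lowest was -0.41, at the forkhead gene Foxk2, followed by -0.40 at Ggta1, -0.38 at the growth factor receptor gene Fgfr1, -0.38 at Lhfpl4 and -0.36 at the homeobox gene Cux2, and all 5 had the motif on the template strand only. The 2 groups had like fold enrichments, 3.56 to 4.79 for the first and 3.47 to 5.45 for the other.

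Long runs of G and C without any A or T were about as common under these peaks as under the exonic ones. A run of at least 20 bp lay under 370 intronic peaks (48.4%, interval 44.9% to 52.0%), 48.8% (45.3% to 52.4%) of exonic peaks and 63.8% (60.5% to 67.0%) of intronic peaks more than 1 kb from TSSs. Within the 200 bp at the summit, 36.0% (32.7% to 39.5%) of intronic peaks and 0.673% of all intronic places had such a run, and with GC content of at least 75% these were 40.8% (36.8% to 45.0%) and 31.5% (29.9% to 33.2%). The longest run was 69 bp, under the peak at Gm17407. Next were the protein kinase gene Prkd3 with 50 bp, the HMG-box gene Bbx with 45 bp, 1700017B05Rik with 40 bp and Hdgfrp2, a gene of a chromatin-binding protein, with 38 bp. The runs went with a higher density of summits at low and at high GC content. At 55% to 60% GC there were 464 summits per Mb (interval 186 to 955) at places with a run of at least 20 bp. Those with no run of 12 bp had 0.358 (0.00906 to 1.99), and these densities rest on 7 and 1 summits. At 70% to 75% they were 759 (487 to 1130) and 177 (111 to 268), and at 75% to 80% 1644 (1315 to 2031) and 603 (330 to 1012). At 80% or more, with 3202 (2690 to 3783) and 1250 (151 to 4515), the intervals overlapped.

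The shares of short motifs went with base composition. The GC box GGGCGG was found on either strand of 601 intronic peaks (78.7%, interval 75.6% to 81.4%) and of 7.36% of all intronic places, and the alternating tract CGCGCG in 39.7% (36.3% to 43.2%) and 1.74%. Against places of at least 75% GC the gap closed, to 82.3% (78.9% to 85.3%) of such peaks and 80% (78.5% to 81.4%) of such places for the GC box, and 44.6% (40.5% to 48.8%) and 42.3% (40.6% to 44.1%) for the alternating tract. TATAAA was found in 1.05% of the peaks and 12.6% of all places, the CA repeat CACACACA in 2.09% and 6.48%, and the GA repeat GAGAGAGA in 0.393% and 3.54%. The E box CACGTG, was in 3.53% of peaks, with an interval (2.44% to 5.09%) that includes the 2.64% of places. The letters TGACGTCA were in no window of the 764, which allows a share of up to 0.393%, against 0.138% of places. These motifs were searched on both strands, and windows of neighboring places overlap.

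Most of the genes had no further summit at the promoter, although 159 of the 764 intronic peaks (20.8%) themselves reached across the TSS. A further summit from 1 kb upstream to 100 bp downstream of the same TSS accompanied 103 of the 764 peaks (13.5%, interval 11.2% to 16.1%). In these pairs the intronic peak had a median fold enrichment of 4.25 (4.12 to 4.40) and the promoter peak one of 4.37 (4.21 to 4.52), and the promoter peak was the higher in 59 of 103. The intronic peaks without such a partner had 4.55 (4.50 to 4.62), above the 4.25 of those with one beyond the intervals. Median reads were close, 22 (21 to 22) without and 21 (20 to 22) with a partner. The local background was lower without one, at 3.90 (3.86 to 3.98) against 4.22 (4.06 to 4.46). Taking every annotated TSS of the gene, 585 of the 751 genes (77.9%) had no summit in that window. The study named its break-prone genes from a window of the same span, but it assigned peaks with HOMER and its annotation. Here summits and GENCODE M1 were used, and no comparison with the study's gene list is given. With a summit there were 166 (22.1%, interval 19.3% to 25.2%), against 11.5% (11% to 11.9%) of all protein-coding genes with intronic sequence in reach. The 751 genes include non-coding ones, and the sets were not matched for GC content or gene length. Among genes with 2 intronic peaks were Pou2f1 (Oct-1), with fold enrichments of 5.60 and 4.60 at 659 and 330 bp in the same intron, and Jazf1 with 4.91 and 4.18 at 350 and 672 bp. The zinc finger gene Vezf1 also had both in 1 intron, with 4.75 and 4.48 at 747 and 409 bp. Those of Tnpo1, a nuclear import receptor gene, with 4.77 and 4.53, and of the ETS-family gene Elf2, with 4.63 and 3.81, lay at different TSSs of the gene.

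Of the 26496 genes that had any intronic sequence 100 to 1000 bp after a TSS, 2.83% had such a peak, and of the 18735 protein-coding ones 731, or 3.90%. Longer genes had one more often. With the protein-coding genes in 5 groups of like size by length, the share was 0.721% (interval 0.496% to 1.05%) in the shortest, up to 5.09 kb, and 8.17% (7.33% to 9.09%) in the longest, from 44.4 kb on. The median length was 36.0 kb (33.2 to 39.7) with a peak and 14.0 kb (13.7 to 14.4) without. The median amount of intronic sequence in reach differed less, with 682 bp in the shortest group and 1181 bp in the longest. Among the 1628 protein-coding genes with at least 1 intronic place of 75% GC or more, the spread was smaller. There, 37.2% (34.9% to 39.6%) had a peak, 28.8% (24.2% to 34.0%) in the shortest of 5 groups by length, 43.4% (38.1% to 48.8%) in the next to longest and 37.4% (32.3% to 42.8%) in the longest.

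Among 9 gene lists, chromatin regulators had the highest share. Of 113 such genes with intronic sequence in reach, 22 (19.5%, interval 13.2% to 27.7%) had an intronic peak, against the 3.90% of all protein-coding genes. The highest were at Brd7, a subunit of the PBAF remodeler, with a fold enrichment of 5.26, Ehmt1, a histone H3 lysine methyltransferase gene, with 4.94, Brd1 with 4.88 and Smarcc2, a core subunit of BAF complexes, with 4.83. These genes also more often had GC-rich introns and more sequence in reach. At least 1 intronic place of 75% GC or more was found in 42 of the 113 (37.2%) and in 8.69% of all protein-coding genes, and the median sequence in reach was 1718 against 898 bp. Within the genes that had such a place, 18 of 42 chromatin regulators (42.9%, interval 29.1% to 57.8%) had a peak, an interval that includes the 37.2% of all such genes.

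Chd1, Chd3, Chd5 and Chd6, remodelers of the Chd family that are named here after their values were seen, were among these 22 genes. No other Chd gene was among the 22, and a share over the whole family is not given here. Chd1 itself, the gene deleted in these cells, had a peak in its first intron (chr17:15842330-15842532), 377 bp downstream of the TSS, in sequence of 84% GC, with a fold enrichment of 3.40 from 16 reads. Chd1 KO reads thus mapped to this stretch, and the part of Chd1 that the deletion removes is not given in the sources used here. Chd6 had 4.64, Chd5 had 4.56 and Chd3 had 2 peaks, with 4.23 and 3.48. All of these lay in the first intron.

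The other 8 lists lay between 0% and 5.88%, and the Wilson interval of each includes the 3.90% of all protein-coding genes. Developmental transcription factors had a peak in 8 of 163 genes (4.91%, interval 2.51% to 9.38%), led by Pou2f1 with 5.60, Satb1 with 5.47, Tcf4 with 5.26 and Nfix with 5.05. Genes of the Wnt, Fgf, Bmp, Notch and Hedgehog pathways had 7 of 119 (5.88%, 2.88% to 11.6%), led by the Fgf receptor adaptor Frs2 with 5.48 and Smad4, the shared mediator of Bmp and TGF-β signals, with 5.21, and followed by Fgfr1 with 4.58 and the Wnt co-receptor Lrp6 with 3.91. Genes of double-strand break repair and its checkpoint had 3 of 64 (4.69%, 1.61% to 12.9%), the ligase gene Lig3 with 5.54, the poly(ADP-ribose) polymerase gene Parp1 with 4.01 and the topoisomerase gene Top2b with 4.00. Axon guidance genes had 3 of 65 (4.62%, 1.58% to 12.7%), Epha8 with 5.14, Sema6b with 3.86 and Epha7 with 3.76. Of 36 RNA polymerase II elongation factor genes 1 had a peak, Supt16h, a subunit of the histone chaperone FACT, with 5.74. Ribosomal protein genes had 2 of 72, Rpl24 with 4.95 and Rpl14 with 4.63, and oxidative phosphorylation genes 1 of 73, Atp5g3 with 5.02. No potassium or calcium channel gene of 78 had one, a count for which 3 genes would be 3.85% and the Wilson interval is 0% to 4.69%.

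**Figure D5:**
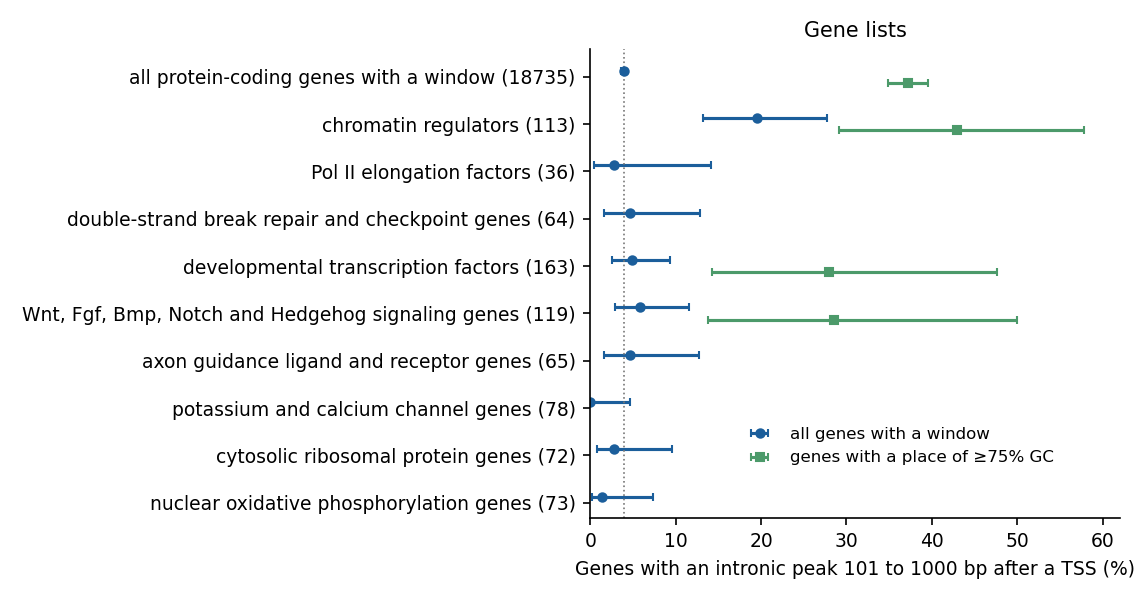
Share of genes with an intronic peak 100 to 1000 bp after a TSS, for each list (number of genes with intronic sequence in reach in parentheses), with Wilson 95% intervals; green squares take only genes with at least 1 intronic place of 75% GC or more, where a list has at least 20. The dotted line is the 3.90% of all protein-coding genes, and chromatin regulators, at 19.5%, are the list whose interval lies above it.

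All 764 peaks were on autosomes. Per Mb of intronic sequence in reach the autosomes had from 18.7 (interval 14.0 to 24.3), on chromosome 2, to 49.0 (32.8 to 70.3), on chromosome 18. Chromosome X had none in 1.33 Mb, which allows up to 2.26 per Mb, and 12 Chd1 KO peaks of any kind. Its introns after TSSs were poorer in GC-rich sequence, with 0.442% of places at 75% GC or more against 0.604% to 1.69% on the autosomes. At places of that GC content chromosome X still had no peak, which allows up to 500 per Mb, against 1543 to 2247 on the autosomes. The number of X copies in these cells is not given in the labels, and the values were not adjusted for it. Chromosome Y had 19 Chd1 KO peaks of any kind. Whether copy number accounts for the lack of peaks on X was not tested.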

How the data were processed

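DSB-seq peak lists of mouse ES cells, 1 per genotype, were used. The authors aligned with Bowtie2 to mm9, required a mapping quality of 13, allowed a single read at any position, pooled both replicates, and called peaks with MACS2 on reads extended to 200 bp at a q-value cutoff of 0.05, without a control library in the stated options. They then removed peaks in blacklisted regions. Each deposited entry holds a position, a whole-number score that follows the q-value, the authors' fold enrichment (a ratio within the combined library), the −log10 p-value, the −log10 q-value and, in the last deposited column, the bases from the start of the peak to its summit. The depth of single replicates is not in these lists. The other samples of the series (ChIP-seq) were not analyzed here.

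The number of reads behind a summit and its background were solved for from fold enrichment and p-value together, with a largest difference from the deposited −log10 p-value of 7.25e-05 in Chd1 KO. For this, fold enrichment was taken as reads plus 1 over background plus 1, so it is below the plain ratio of the reads and background given here. TSSs, transcripts and exons came from GENCODE M1 on mm9, the build of the lists. Sequence features used 200 bp centered on the summit. Places were spaced by 100 bp, and a place stood for 100 bp in densities by GC content. Intervals were Wilson for shares, exact Poisson for densities and from order statistics for medians. Overlap needed 1 bp. The calculations, tested on simulated data, used Python 3.11.15, NumPy 2.4.6, SciPy 1.17.1, pandas 2.3.3, pysam 0.24.0 and Matplotlib 3.10.9.

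The choice of these peaks and the gene lists were made with earlier results of these data known. Named are the 10 peaks of highest fold enrichment, the 5 longest runs, the 5 highest and 5 lowest skews, up to 5 genes with 2 peaks, the peaks at the limits of the window, and up to 4 genes per list. Printed sequences were the first 8 by fold enrichment outside exons, at most 1 per gene and none from chromosome 18. Alternatives changed the summit, the cutoffs, the transcripts, the distance, the chromosomes, the merging of peaks, and the sequence window and motif rules.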

Additional observations from a re-analysis of the deposited data

How the results depend on the processing

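The 12 results were recomputed under 16 alternatives, which gave 99 values. Of these, 76 stayed within the interval of the result (or within 1.5 times of the number of peaks), 23 did not and none changed sign, and the cause was not tested except where the construction of the alternative shows it. The midpoint of the peak in place of its summit gave a median distance of 298 bp. With only peaks of at least the −log10 p-value of the weakest control peak, the median fold enrichment was 4.62, the share of genes 2.51% and the share of TSSs with a promoter peak 10.9%, against 13.6% of the 757 TSSs in the report's setting. With protein-coding transcripts only, 4.15% of genes had an intronic peak and the ratio of intronic to exonic density was 0.376 in place of 0.497. With a far limit of 500 bp the median distance was 280 bp, 98.6% of summits were in the first intron, 2.5% of genes had a peak and the density ratio was 0.7. Merging of near peaks lowered the share of TSSs with a promoter peak to 7.79%, since it joins such pairs. Windows of 100 bp, 400 bp and the whole peak gave a median GC content of 80%, 74.5% and 76.6%, and the motif of 4 G runs on the coding strand in 25.3%, 53.4% and 51.2%, since wider windows hold more sequence. With 400 bp the median skew was 0.0796. Gaps of up to 12 bases gave 58.2% and the template strand 18.7%. Runs of at least 12 bp lay under 96.1% of peaks. The first intron of any transcript held 98.3% of the summits, and of genes with at least 400 bp in reach 3.14% had a peak.

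No paired analysis was possible because the authors combined the replicates before peak calling. The spread between replicates is therefore unknown, and intervals cover counting error only. The lowest pileup of any listed Chd1 KO peak was 13 extended reads.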
